A study of Mus musculus with 2 samples.

Results

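Mir29a, Mir29b-1, Mir29b-2 and Mir29c, the 4 mouse genes of the miR-29 family, were followed in microRNA sequencing of newborn bladder. They were picked by symbol from the 1973 miRNA genes of the count tables, through the Ensembl gene ID of each, and not by their measured values. The material was bladder tissue of strain B6NCrl at postnatal day 0. The labels give no treatment, and sex was not collected. There was 1 bladder per library and 1 library per pup. The 2 pups, called pup 2 and pup 1 after the labels, were from the same pregnancy and form a single group. No condition could therefore be compared, and differences between the pups are differences between 2 libraries with no replicate on either side.

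A microRNA is cut from a hairpin in a longer transcript. One arm of the hairpin, 5p or 3p, guides repression of messenger RNAs that pair with its seed, bases 2 to 8. The miR-29 family is best known for repressing messenger RNAs of the extracellular matrix, among them collagens, elastin and fibrillin, as described in fibroblasts of the heart. The wall of the bladder owes its strength and compliance to collagen and elastic fibres of the lamina propria and of the smooth muscle layer.

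The 3p arms, the main guides of the family, are printed first because their sequences decide which reads could be assigned to which gene. They come from RefSeq annotation on GRCm38.p6, where all 4 genes were found. Capitals mark the seed.
mmu-miR-29a-3p: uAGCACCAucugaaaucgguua
mmu-miR-29c-3p: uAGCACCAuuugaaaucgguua
mmu-miR-29b-3p: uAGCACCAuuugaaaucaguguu
The 4 genes give 3 distinct 3p sequences, and these share 1 seed. Among the 1674 distinct mature mouse sequences of the RefSeq table, no others carried that seed. Counted from 1 at the 5′ end, miR-29a-3p and miR-29c-3p were identical at 21 of 22 bases and differed by C10U. From miR-29c-3p, miR-29b-3p differed by G18A, U21G and A22U over 22 bases, and it had 1 further base at its 3′ end. The hexamer AGUGUU, searched on the sequence as written, closed miR-29b-3p and began at its base 18. In human cells this ending has been described as a signal for import into the nucleus. It was in 12 of the 1674 mature sequences (0.717%), ended 2 of them, and was absent from miR-29a-3p and miR-29c-3p.

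Mir29b-1 and Mir29b-2 make the same miR-29b-3p from separate chromosomes. Their hairpins shared a run of 25 bases that began 2 bases before the mature form and ended with its last base.
shared run of Mir29b-1 and Mir29b-2: ucuagcaccauuugaaaucaguguu
A read of the mature 3p arm therefore matched both genes equally, and the tables list reads that matched several places in a total apart from the genes. The counts of Mir29b-1 and Mir29b-2 hold only what could be placed, such as reads of the 5p arms, which are shown because they tell the copies apart.
mmu-miR-29b-1-5p: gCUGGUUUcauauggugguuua
mmu-miR-29b-2-5p: cUGGUUUCacaugguggcuuagauu
The tables do not say from which arm a count came. Of stretches of 22 bases, 5 of 50 in the Mir29b-1 hairpin and 4 of 60 in the Mir29b-2 hairpin recurred in another annotated hairpin. In Mir29c it was 1 of 67, a stretch that begins before the 3p arm, and in Mir29a it was 0 of 67. The 3p arms of Mir29a and Mir29c were in no other hairpin, although a single misread base at position 10 would turn one into the other. Matches elsewhere in the genome, outside annotated hairpins and transcripts, were not searched.

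**Figure D1:**
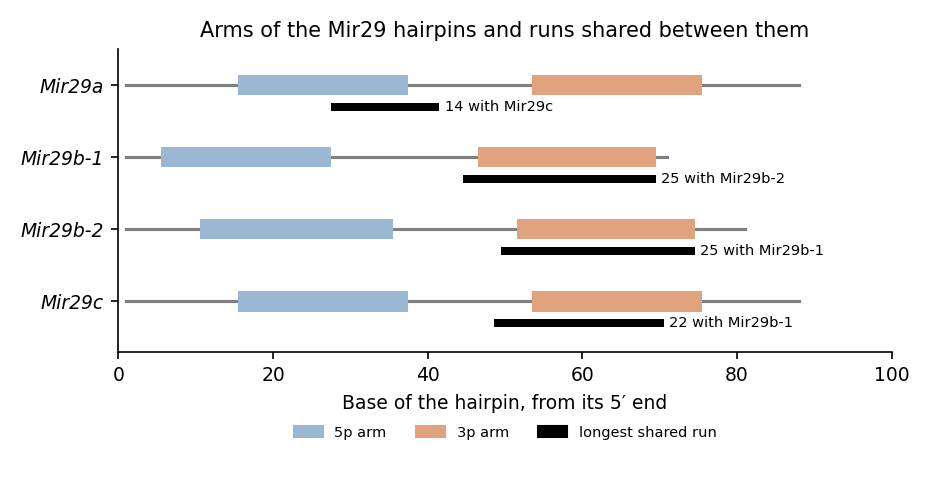
Each grey line is a hairpin drawn to scale from its 5′ end in bases, with the 5p arm in blue, the 3p arm in orange and, in black, the longest run of bases it shares with another Mir29 hairpin. The run of 25 bases covers the whole 3p arm of Mir29b-1 and Mir29b-2, whereas the run of 22 bases in Mir29c stops short of the arm's end and the run of 14 bases in Mir29a lies outside its 3p arm.

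The genes lie in 2 pairs. On chromosome 6 of GRCm38, on the minus strand, Mir29a (ENSMUSG00000065610.1) spans 31062660 to 31062747 and Mir29b-1 (ENSMUSG00000065604.1) spans 31063023 to 31063093, with 275 bases between them. Mir29b-1 overlaps the edge of the non-coding gene Gm27019 in GENCODE M21, and no annotated gene overlaps Mir29a. On chromosome 1, on the plus strand, Mir29b-2 (ENSMUSG00000065412.2) spans 195037040 to 195037120 and Mir29c (ENSMUSG00000065548.1) spans 195037547 to 195037634, with 426 bases between them. Both lie whole in an exon of a retained-intron transcript of the non-coding gene A330023F24Rik. Both also lie opposite the 3′ UTR of 1 transcript of Cd46, a complement regulator on the other strand. The IDs of Mir29b-1 and Mir29b-2 carry later version numbers in M21 than in the tables, so the bounds used for counting those genes may differ from the ones given here.

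The libraries differed in depth. Pup 2 had 3636650 sense-strand gene counts and pup 1 had 7460621. Levels are given as sense-strand counts per 1000000 such counts of the library (CPM), and they are not divided by length, because the mature forms of the family are all 22 to 25 bases long. In pup 2 a count of 0 allows a level of up to 0.825 CPM, and in pup 1 of up to 0.402 CPM. These limits, like all intervals below (95%), cover read counting alone, because molecules were not tagged before amplification. Markers of the tissue were present: Mir143, a miRNA of smooth muscle, took 52.3% of gene counts in pup 2 and 52.6% in pup 1. Of smooth muscle markers 2 of 3 were detected, and of epithelial markers 7 of 7. The 4 markers of fibroblasts and mesenchyme, cells that make most of the matrix, were all detected. They summed to 4091 CPM in pup 2 against 4382 CPM in pup 1. Most of this sum of placed counts was Mir214, with 3797 CPM in pup 2 against 4112 CPM in pup 1. Mir199a-1 was also lower in pup 2 (3.85 against 4.29 CPM). Mir199b (232.9 against 211.6 CPM) and Mir199a-2 (57.2 against 53.9 CPM) were higher in pup 2. In the scaled comparison of the pups below, Mir199a-1 had a log2 ratio of -0.10 (counting SE 0.456). Mir199a-2 had 0.11 (counting SE 0.123), so both differences were within counting error. Of neuron and glia markers 2 of 7 were detected, and of striated muscle markers 2 of 6. Markers that are gene copies, such as Mir199a-1, Mir199a-2 and Mir133a-2, lack reads that match several copies. Their levels are lower limits, and a lack of detection does not show that their miRNA is absent. Detection here means at least 1 CPM and 3 counts in both libraries, which 335 genes (17.0% of those listed) reached.

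By placed counts, Mir29a was the highest member, Mir29c the next, and both Mir29b genes were at the lower end of the profile. Of the 4 members, 3 were detected, all but Mir29b-2. In bulk tissue, a lower share of cells that make a miRNA and a lower amount per cell cannot be told apart.

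Mir29a, whose 3p arm is in no other hairpin, had 1482 counts in pup 2 and 2541 counts in pup 1. That is 407.5 CPM in pup 2 (exact Poisson interval 387.0 to 428.8) and 340.6 CPM in pup 1 (327.5 to 354.1), with a mean of 374.1 ± 47.3 CPM (SD, n = 2). Pup 2 was the higher, and the intervals did not overlap. By CPM, Mir29a ranked 103 in pup 2 and 107 in pup 1 among the 1973 genes.

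Mir29c, whose 3p arm differs from that of Mir29a at 1 base, had 341 counts in pup 2 and 670 counts in pup 1. Its level was 93.8 CPM in pup 2 (84.1 to 104.3) and 89.8 CPM in pup 1 (83.1 to 96.9), with a mean of 91.8 ± 2.80 CPM (SD, n = 2). Here the intervals overlapped, and the ranks were 159 in pup 2 and 162 in pup 1.

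Mir29b-1 had 15 counts in pup 2 and 30 counts in pup 1. These gave 4.12 CPM in pup 2 (2.31 to 6.80) and 4.02 CPM in pup 1 (2.71 to 5.74), a mean of 4.07 ± 0.073 CPM (SD, n = 2). The pups overlapped, and the SD was small beside the counting interval of either library. The ranks were 278 in pup 2 and 276 in pup 1.

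Mir29b-2 had 6 counts in pup 2 and 3 counts in pup 1. Its level was 1.65 CPM in pup 2 (0.605 to 3.59) and 0.402 CPM in pup 1 (0.083 to 1.18), where the value for pup 1 is what a count of 0 allows there. The ratio of these CPM values, pup 2 over pup 1, was 4.10, with an exact interval of 0.876 to 25.4 that includes no difference. Because both Mir29b genes lose the reads of their common 3p arm, their levels are lower limits and do not show that miR-29b is scarce in the bladder.

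**Figure D2:**
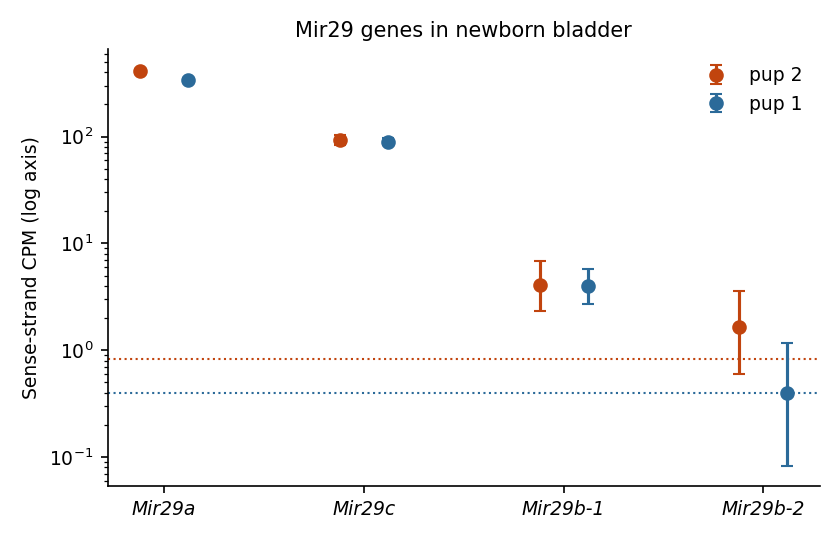
Points are sense-strand CPM of each Mir29 gene in pup 2 and pup 1 on a log axis, bars are exact 95% Poisson intervals, and dotted lines in the same colours mark what a count of 0 allows. Mir29a is at 407.5 CPM for pup 2 against 340.6 CPM for pup 1, and Mir29b-2 lies nearest the dotted lines.

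In the order of levels, Mir29a and Mir29c did not overlap in either pup, nor did Mir29c and Mir29b-1. The intervals of Mir29b-1 and Mir29b-2 overlapped in pup 2 and did not overlap in pup 1, so that step in the order rests on few counts. Mir29a held 80.4% of the family's counts in pup 2 (exact binomial interval 78.5% to 82.2%) and 78.3% in pup 1 (76.9% to 79.7%). Mir29c held 18.5% in pup 2 (16.7% to 20.3%) and 20.7% in pup 1 (19.3% to 22.1%). The Mir29b genes together held 1.14% in pup 2 and 1.02% in pup 1. These are shares of placed counts, which lack the reads of miR-29b-3p. For the output of the family, those of Mir29a and Mir29c are therefore upper limits and that of the Mir29b genes is a lower limit.

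Mir29a counts were 4.35 times those of Mir29c in pup 2 (exact interval 3.86 to 4.90) and 3.79 times in pup 1 (3.48 to 4.14). On the log2 scale this ratio was 0.20 higher in pup 2, with a counting SE of 0.107 and an interval of -0.01 to 0.41. A difference in the balance of the 2 main members was thus not detectable at this depth.

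Within each pair, the Mir29b gene had the fewer counts. Since these counts lack reads of the common 3p arm, the ratios to them are upper limits for the output of the genes, and their intervals cover counting of the placed reads only. Mir29a counts were 98.8 times those of Mir29b-1 in pup 2 (59.7 to 177.0) and 84.7 times in pup 1 (59.2 to 125.8). Mir29c counts were 56.8 times those of Mir29b-2 in pup 2 (25.8 to 156.0) and 223.3 times in pup 1 (76.1 to 1086), where the divisor was 3 counts. The chromosome 6 pair summed to 4.31 times the chromosome 1 pair in pup 2 and 3.82 times in pup 1. Both of these sums lack reads of miR-29b-3p, so the ratio for all reads could be higher or lower. For comparison, 93 other pairs of same-strand neighbours within 10000 bases had at least 10 counts summed in each gene. Their higher gene had a median of 5.89 times the counts of the lower, with quartiles of 2.33 and 30.7. A ratio as large as the mean of 91.8 for Mir29a over Mir29b-1 was found in 8 of the 93 (8.60%).

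The family summed to 507.1 CPM in pup 2 (484.2 to 530.7) and 434.8 CPM in pup 1 (420.0 to 450.0). That is 0.0507% of gene counts in pup 2 and 0.0435% in pup 1. These sums lack the reads of miR-29b-3p, so they are lower limits for the family, and their intervals cover placed reads only. By these placed counts, with genes grouped by the number in their name, the Mir29 family ranked 80 of 264 families that had a detected gene. It stood between Mir107 at 484.0 CPM and Mir188 at 464.8 CPM, each a single gene.

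**Figure D3:**
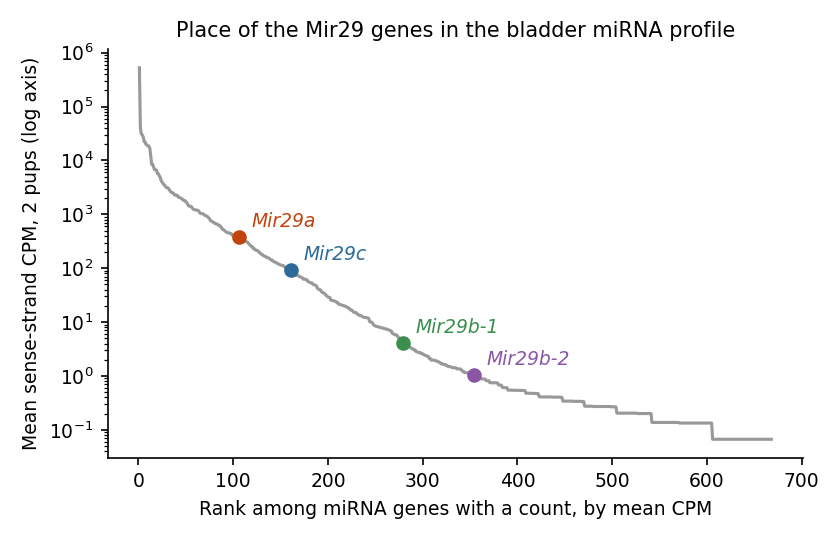
The grey line orders the miRNA genes that had a count by mean CPM of the 2 pups on a log axis, with the Mir29 genes marked. Mir29a stands at 374.1 CPM, Mir29c at 91.8 CPM, and the Mir29b genes stand at 4.07 and 1.03 CPM, far down the curve.

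The genes nearest to each detected member in mean CPM were taken as most like it in level. With 2 libraries this likeness says nothing of a shared pattern. Next above Mir29a was Mir144, a miRNA of red cells, with 471.0 CPM in pup 2 against 288.3 CPM in pup 1. Next below it was Mir669o, with 382.8 CPM in pup 2 against 348.8 CPM in pup 1. Mir669o was nearer to Mir29a in both libraries, with a mean distance of 0.06 in log2(CPM + 1) against 0.22 for Mir144. Mir29c stood between Mir101a at 94.8 ± 9.86 CPM and Mir370 at 83.6 ± 6.27 CPM (SD, n = 2 each), and its own SD reached neither mean. Mir29b-1 shared its counts of 15 and 30 with Mir1188, and Mir199a-1, a copy of a mesenchymal miRNA, was next below at 4.07 ± 0.311 CPM.

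The pups were compared gene by gene by an exact binomial test, two-sided and conditional on the sum of both counts. It covered 362 genes, those whose counts in the pups summed to 10 or more, with TMM scaling and Benjamini-Hochberg adjustment. The test sets these 2 libraries against counting noise alone. It called 32.3% of the 362 genes, 19.1% as higher and 13.3% as lower in pup 2. In numbers these were 69 higher and 48 lower genes, against 56 higher and 69 lower with DESeq2 size factors and 59 higher and 64 lower with total counts. Of the 4 members 3 were tested, since Mir29b-2 had too few counts, and 1 was called, a share near that of all genes.

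Mir29a was higher in pup 2, with a log2 ratio of 0.28 (counting SE 0.047), or 1.22-fold (1.14 to 1.30), at an adjusted p of 2.1e-08 by this exact test. Of the tested genes, 32.0% had a larger ratio in either direction. That share includes genes with few counts, whose ratios carry more counting noise. In edgeR's exact test with the common dispersion of these libraries Mir29a was not called. The dispersion came from the same 2 libraries, so the test cannot show whether the difference exceeds the spread between littermates. That test called 5 genes (1.38%), and 17 genes had an unadjusted p under 0.05. Mir29c had a log2 ratio of 0.09 (counting SE 0.096, interval -0.10 to 0.28) and an adjusted p of 0.565 in the exact binomial test. Mir29b-1 had a log2 ratio of 0.08 (counting SE 0.450, interval -0.80 to 0.97) and an adjusted p of 0.957 in the same exact test, and its interval in folds was 0.575 to 1.95.

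Markers of other cells also differed between the pups, in both directions. Of 6 blood markers 5 have a row of their own, all 5 were detected, and none was at 0. Their summed level was 2300 CPM in pup 2 and 1148 CPM in pup 1, a gap made up mostly by Mir223, a miRNA of myeloid cells, with 1274 CPM in pup 2 against 396.2 CPM in pup 1. By the exact binomial test, which covers counting noise alone, 3 of the 5 were higher in pup 2, against 19.1% of all tested genes. That share covers genes of all levels, and the test calls smaller differences where counts are higher. Mir150 (log2 ratio 0.16) and Mir155 (log2 ratio -0.10) were not called. Mir122, the marker of liver, was lower in pup 2, with 31.6 CPM against 111.8 CPM in pup 1 (log2 ratio -1.79). By placed counts, the 6 measured markers of striated muscle summed to 60.8 CPM in pup 2 against 85.9 CPM in pup 1. Among them Mir133a-2 was at 0, and Mir208b was lower in pup 2 (log2 ratio -0.45). Pup 2, in which Mir29a was higher, was the shallower library, and 24.8% of its reads matched several places, against 22.7% in pup 1. The part of these in the Mir29a difference was not tested.

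**Figure D4:**
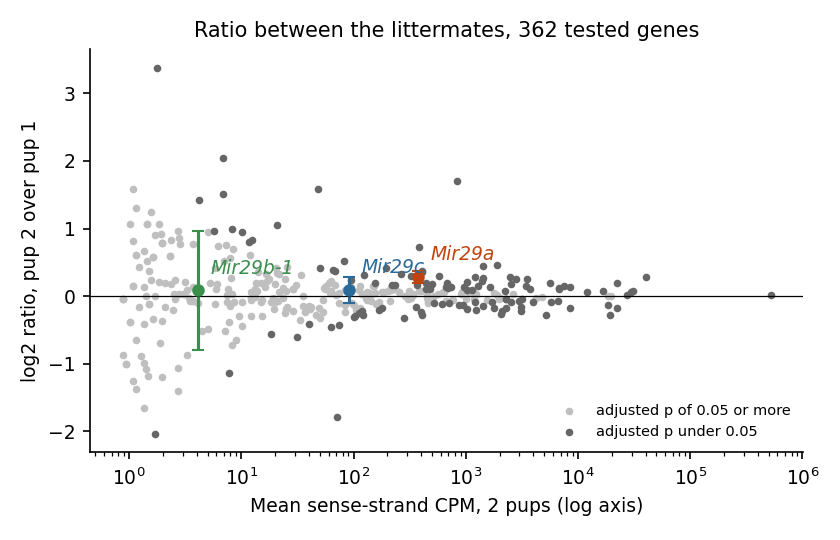
Each point is 1 of the 362 tested genes, with mean CPM on a log axis and the log2 ratio of pup 2 over pup 1, dark where the adjusted p was under 0.05. Coloured points are the tested Mir29 genes with 95% counting intervals: Mir29a lies at 0.28, inside the band of genes of like level, and Mir29c and Mir29b-1 have intervals that cross 0.

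No opposite-strand count fell on any of the 4 genes in either library. At Mir29b-2 and Mir29c, which lie opposite a Cd46 transcript, any small RNA of the Cd46 strand was thus under 0.825 CPM in pup 2 and under 0.402 CPM in pup 1.

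Other miRNAs known for regulation of matrix and fibrosis genes were set beside the family as a list of 26, of which 25 have a row. Of these 23 were detected, with a median level of 222.3 CPM over the 25, against 54.3 CPM over the 362 tested genes. By placed counts, Mir29a was below 10 of the 25. Some of the list are gene copies, which lack reads that match several copies, so their levels are lower limits. The median of the list and the place of Mir29a in it hold for placed counts only. The most abundant of the list by these counts were Mir143 at 524810 CPM, Mir21a at 31210 CPM, Mir26b at 22050.0 CPM and Mir22 at 19380 CPM, means of the pups. Mir21a promotes fibrosis in mouse heart by way of fibroblast signalling. Of the 23 tested, 7 were higher and 3 lower in pup 2 by the exact binomial test, where 19.1% of all tested genes were higher and 13.3% lower. This test calls smaller differences where counts are higher, and the list stood above the tested genes in level. The shares over all genes are therefore not a like background. Among the 7, Mir143 had a log2 ratio of only 0.015 and Mir21a of 0.077. The list had a median log2 ratio of 0.02, against 0.03 over all tested genes. With DESeq2 size factors or total counts as scaling the split was 4 higher and 6 lower, and with the common dispersion none was called.

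What the family could pair with was read from the reference, since messenger RNAs were not measured here. The complement of the shared seed is UGGUGCU. It was searched on the sense strand of the longest annotated 3′ UTR of each protein-coding gene in GENCODE M21, and overlapping matches were counted. Of 44 collagen genes, 25 held at least 1 match (56.8%), against 2755 of all 21028 protein-coding genes (13.1%). At least 2 matches were held by 11 of the collagen genes and by 427 of all genes (2.03%). Within the first 1000 bases, where lengths are equal, 12 of 24 collagen genes and 1028 of 10243 genes held one. Matches per 1000 bases were 0.693 in collagen genes and 0.106 in all genes. The collagen genes were taken by symbol, and no test was made.

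**Figure D5:**
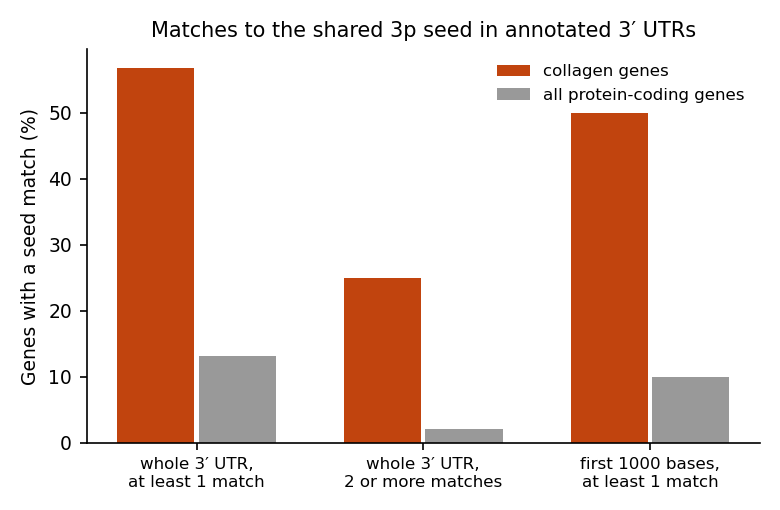
Bars give the percentage of collagen genes and of all protein-coding genes whose annotated 3′ UTR holds the complement of the miR-29 3p seed, on an axis from 0. The collagen bars are higher in each of the 3 counts, at 56.8% against 13.1% for the whole 3′ UTR.

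Matches in genes of the main fibres and the basement membrane are shown with their flanking bases and with the match in capitals. These genes were chosen after their matches were seen; the longest annotated 3′ UTR of Col1a2, for the partner chain of Col1a1, held no match. Coordinates are those of the printed stretch on GRCm38.
Col1a1: gggaaggaauuucUGGUGCUa
Col3a1: caaaaugucucaaUGGUGCUa
Col4a1: caccgucacaacaUGGUGCUa
Eln: accucaucaacguUGGUGCUa
The Col1a1 stretch, from the gene of a fibrillar collagen chain, is at chr11:94952525-94952545 on the plus strand. Col3a1, for the fibrillar collagen of compliant tissues, has its stretch at chr1:45348969-45348989 on the plus strand. Col4a1, for a basement membrane collagen, has its stretch at chr8:11199761-11199781 on the minus strand. Eln, for elastin, has its first at chr5:134703736-134703756 on the minus strand, and its 3′ UTR held 3 matches in all. All 4 printed matches are followed by A, the base that extends a seed match in the usual classification. A match describes the letters only and does not show that the site is used in the bladder.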

How the data were processed

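Small RNA of a size range below 30 nucleotides was sequenced from 2 newborn bladders, per the labels. The authors deposited 1 table of whole-number counts per library, not normalized. Alignment was to mm10 with genes of GENCODE M4, per the deposited file notes; which aligner and counter were used is not given in the sources used here. No table has a header, and the strand of each column was read from the values. The first 4 lines, totals of unassigned reads, stayed out of library sizes. Of 1973 gene IDs, 1894 matched GENCODE M21 by Ensembl number.

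CPM uses all sense-strand gene counts. TMM factors came from edgeR 4.0.16 in R 4.3.3 over the genes tested, log2 ratios have a prior count of 0.5, and the threshold was an adjusted p of 0.05. Alternatives were DESeq2 1.42.0 size factors, total counts, count minimums of 1 and 100, both strands, other totals, a prior count of 2, a common dispersion and each pup left out. Python 3.11.15 with scipy 1.17.1 did the rest. The test of the pups was checked on counts simulated with known changes and counting noise only, scaled by library totals. Of 49 genes changed 1.25-fold it called 27, and of 171 unchanged genes it called 4. Such counts cannot check the test against spread between pups.

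The members and lists were chosen with earlier results of these data known. Named beside the members were the next gene above and below each detected one in mean CPM. By the same rule, at most 4 list members with the highest mean CPM were named. Mir150 and Mir133a-2 were named outside this rule. The 3′ UTR search and the grouping by name number were added later.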

Additional observations from a re-analysis of the deposited data

How the results depend on the processing

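The log2 ratio of Mir29a between the pups kept its direction in all 9 settings run, from 0.22 to 0.28, with adjusted p from 2.1e-08 to 1 in these exact tests. It stayed under the threshold in all but edgeR's exact test with the common dispersion. There the ratio was 0.28, the adjusted p was 1 and 5 genes were called in place of 117. By design that test adds a spread between the libraries to counting noise. The spread, a biological coefficient of variation of 13.2%, was estimated from these same 2 libraries. Mir29c (0.02 to 0.09) and Mir29b-1 (0.02 to 0.15) were called under none; Mir29b-1 was not tested at 100 counts. Of the 117 calls 59.0% were higher in pup 2, with 44.8% under DESeq2 size factors, 48.0% under total counts and 39.8% with TMM factors from all genes, an alternative chosen after seeing the data.

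Levels changed with the total they were divided by. With Mir143 left out of it, Mir29a stood at 786.9 CPM, Mir29c at 193.1 CPM, Mir29b-1 at 8.57 CPM, Mir29b-2 at 2.15 CPM and the family at 990.8 CPM. Per 1000000 reads of the library the values were 244.3 for Mir29a, 59.98 for Mir29c, 2.66 for Mir29b-1 and 307.6 for the family. With counts of both strands, Mir29b-1 was at 3.94 CPM and Mir29c at 88.9 CPM. Shares within the family do not depend on the total. With 2 libraries, leaving out a pup leaves the value of the other, which is no check of stability. Mir29b-2, at a mean of 1.03 CPM, was at 1.65 CPM without pup 1 and 0.402 CPM without pup 2. Its share of the family, 0.209% in the mean, was 0.325% without pup 1 and 0.0925% without pup 2. Mir29c over Mir29b-2, 140.1 in the mean, was 56.8 without pup 1 and 223.3 without pup 2. For the ratio between the pups no value is left without either of them. No paired analysis was possible because the samples form 1 group.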

Other observations

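Low counts of genes with a common mature form were not particular to Mir29b-1 and Mir29b-2. Of 916 genes with a mature sequence in the RefSeq table, 87 make one that another gene makes as well, and 42 of these were detected. Their median level was 23.0 CPM, against 93.3 CPM for the 266 detected among the 829 genes whose mature sequences are all their own. In the neighbouring pairs, the lower gene had such a shared sequence in 20 of 89 pairs with annotation. The median ratio was 15.6 in these 20 pairs and 4.77 in the other 69. Among the 8 pairs with a ratio at least as large as that of Mir29a over Mir29b-1 it was 5. They include Mir20a over Mir19b-1, Mir99a over Mirlet7c-1 and Mir30e over Mir30c-1, named after their values were seen. These counts were made after seeing the data and are a description with no test.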
